A study of Mus musculus with 6 samples.

Results

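The coxsackievirus and adenovirus receptor gene Cxadr and 6 related adhesion genes, Clmp, Esam, Igsf11, Jam2, Jam3 and F11r, were followed across 6 RNA libraries of mouse prefrontal cortex. Members were the rows of the count tables that carry these 7 gene symbols, out of 54429 rows. All 7 were among the 24419 genes with enough counts to be tested. Cxadr was chosen by its counts scaled to library size (CPM) in these same libraries, which were higher with the hairpin, so its difference between groups is described here with no test. The other 6 were picked as relatives of Cxadr, and their tests come from a fit over all 24419 genes.

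Both groups were mice aged 6 to 8 weeks injected with AAV9, an adeno-associated virus vector, and bulk lysate of their prefrontal cortex was sequenced after ribosomal RNA removal. In 3 libraries, labelled Kmt5b shRNA, the vector carried a short hairpin RNA against Kmt5b, a histone H4 lysine 20 methyltransferase linked to autism. In the 3 control libraries, labelled GFP, it carried green fluorescent protein, with no control hairpin named. The labels give C57BL6/J and the design text a C57BL/6 x C3H cross, and that text counts 2 control mice, so the GFP libraries may not be 3 separate animals, and any p-value would then reflect library spread alone. Neither the promoter of the vectors nor the share of cells reached is given in the sources used here. Total counts ranged from 29490771 to 74723284 per library. Kmt5b itself was at 68.5, 80.3 and 63.9 CPM in the Kmt5b shRNA libraries and at 86.5, 79.7 and 80.9 CPM in the GFP libraries. Its log2 difference of -0.22 ± 0.10 (SE) did not pass (edgeR adjusted p = 0.303). For Kmt5b, the library labelled Kmt5b shRNA replicate 2 lay within the GFP range, and each direction below rests on the labels. Neuron markers summed to between 8812 and 10116 CPM in the Kmt5b shRNA libraries and between 9067 and 10862 CPM in the GFP libraries. In bulk tissue, fewer cells of a type and less RNA per cell cannot be told apart.

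These 7 proteins belong to the CTX group of the immunoglobulin superfamily, cell surface proteins with a pair of immunoglobulin domains outside the cell, one membrane pass and a tail that binds scaffold proteins inside. They hold neighbouring cells together by binding the same or a related protein on the next cell, often at tight junctions. In brain they are found on the blood vessel wall, on glia and on neurons, and Cxadr is abundant in the developing brain.

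Reads of one member could be counted for another only where their sequences match. Among the 21 pairs of members, the longest identical run in coding sequence was 18 nucleotides (Cxadr with Clmp), then 17 (Cxadr with Esam), and no other pair shared more than 12. Untranslated exons were not compared between members, so matches there are not known. The stretches are shown because they hold the longest identical coding runs between Cxadr and any relative. The shared run is in capitals, with 12 nucleotides of each gene's own coding sequence on either side. They are read 5′ to 3′ from GENCODE M21 transcripts and lie on the plus strand of mm10, at chr16:78325258-78325299 and chr9:40760999-40761040 for the first pair and at chr16:78334227-78334267 and chr9:37536656-37536696 for the second.
Cxadr, run shared with Clmp: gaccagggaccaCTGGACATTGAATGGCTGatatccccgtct
Clmp, run shared with Cxadr: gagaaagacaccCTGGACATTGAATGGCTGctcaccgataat
Cxadr, run shared with Esam: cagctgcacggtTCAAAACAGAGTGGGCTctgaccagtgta
Esam, run shared with Cxadr: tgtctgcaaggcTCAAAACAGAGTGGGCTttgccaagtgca
Both runs end within 18 nucleotides and the flanks differ. No annotated pseudogene or other gene outside the 7 members matched any member in the same orientation at 90% identity over 100 nucleotides. The matches of that size were exons of overlapping genes on the opposite strand, namely Btg3 for Cxadr, Gm16096 for Clmp and Gm48796 for Jam3.

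Cxadr, a homophilic adhesion protein of epithelia and of developing neurons that coxsackie B viruses and many adenoviruses use to enter cells, lies on chromosome 16 from 78301489 to 78359774 (mm10, plus strand). Its counts were 4326, 3680 and 4754 in the Kmt5b shRNA libraries and 2936, 1245 and 3621 in the GFP libraries. Scaled to library size, Cxadr was at 76.0, 79.2 and 86.7 CPM in the Kmt5b shRNA libraries and at 43.9, 40.5 and 46.3 CPM in the GFP libraries. The groups did not overlap, and the lowest Kmt5b shRNA library stood well above the highest GFP library. The mean was 80.6 ± 5.46 CPM with the hairpin and 43.6 ± 2.90 CPM with GFP (mean ± SD, n = 3 each), a fold of 1.85, or 0.89 on the log2 scale. CPM ranges failed to overlap for 22.5% of all genes tested, for 9.84% with the Kmt5b shRNA libraries on top and for 12.7% with them below.

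**Figure D1:**
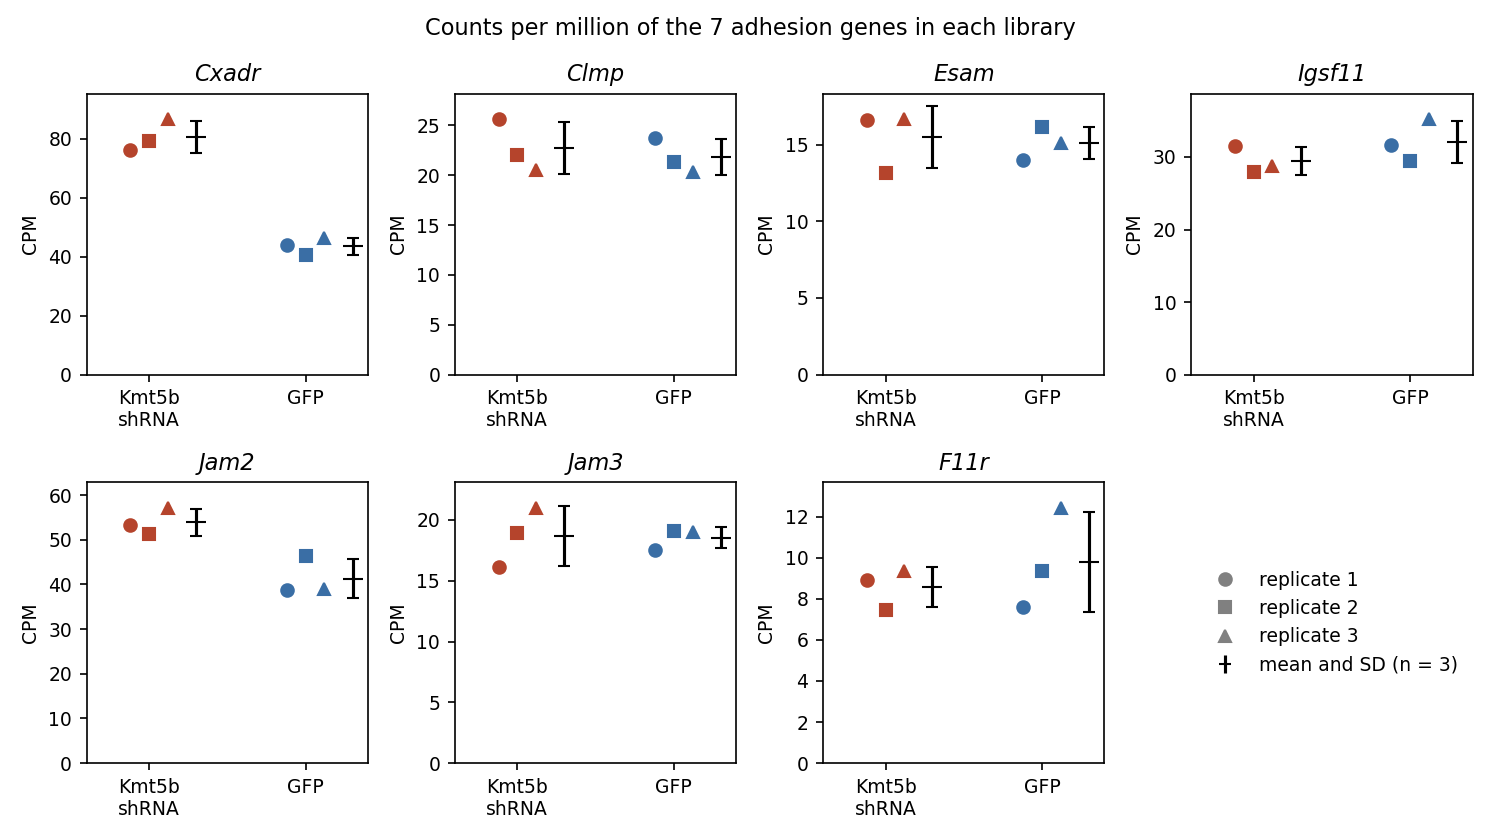
CPM of the 7 adhesion genes in each library, Kmt5b shRNA on the left and GFP on the right of each panel, with symbols for replicates and black bars for the mean and SD (n = 3 per group). Cxadr and Jam2 show no overlap between groups, while the groups overlap for the other 5 genes.

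Jam2, or JAM-B, is a junctional adhesion molecule of vessel walls that also marks neuronal cell bodies and dendrites, where it keeps myelin away in mice. It lies on chromosome 16 from 84774123 to 84825928, 6.41 Mb from Cxadr. Jam2 was at 53.3, 51.2 and 57.2 CPM in the Kmt5b shRNA libraries and at 38.7, 46.3 and 38.9 CPM in the GFP libraries. Every Kmt5b shRNA library was above every GFP library, with GFP replicate 2 closest to them. Jam2 rose by 0.39 ± 0.10 on the log2 scale (SE), a fold of 1.31 with a 95% interval from 1.12 to 1.52, and passed the edgeR quasi-likelihood test over all genes (adjusted p = 0.0271, higher in 3 of 3 libraries). The call was lost in 4 of 6 fits with 5 libraries. Leaving out GFP replicate 1 gave an edgeR adjusted p of 0.0778 and GFP replicate 3 gave 0.123. Leaving out Kmt5b shRNA replicate 1 gave 0.095 and replicate 3 gave 0.0936. It was 0.0652 where protein-coding genes alone were fitted and 0.0971 where only genes without shared sequence were, and these fits then called 0 of the 6 relatives by edgeR. Of all genes, the first called 4.15% (2.99% higher) and the second 1.3% (0.875% higher).

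Jam3, or JAM-C, is the binding partner of JAM-B on vessel walls and is also made by oligodendrocytes. It lies on chromosome 9 from 27097384 to 27155421 on the minus strand. Jam3 was at 16.1, 18.9 and 21.02 CPM in the Kmt5b shRNA libraries and at 17.5, 19.1 and 19.0 CPM in the GFP libraries. The Kmt5b shRNA libraries took both the lowest and the highest value, and the mean was 18.7 ± 2.46 CPM with the hairpin and 18.5 ± 0.879 CPM with GFP (SD, n = 3 each). The log2 fold change was 0.01 ± 0.12 (SE), with a 95% interval from -0.24 to 0.27, and did not pass (edgeR adjusted p = 0.983). Summed oligodendrocyte markers were at 1632, 2975 and 3424 CPM in the Kmt5b shRNA libraries and at 4529, 2952 and 3236 CPM in the GFP libraries. Kmt5b shRNA replicate 1 was lowest for both this sum and Jam3. GFP replicate 1 was highest for the sum but, at 17.5 CPM, lowest of the GFP libraries for Jam3. The part of oligodendrocytes in the Jam3 values was not tested.

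F11r, or JAM-A, a junction protein of epithelia, endothelium, platelets and leukocytes and the receptor of reoviruses, lies on chromosome 1 from 171437535 to 171464603. It had the fewest counts of the 7, between 287 and 973 per library. F11r was at 8.89, 7.47 and 9.33 CPM in the Kmt5b shRNA libraries and at 7.61, 9.34 and 12.4 CPM in the GFP libraries. GFP replicate 3 was the highest of the 6 libraries and the rest overlapped. The log2 fold change of -0.20 ± 0.18 (SE, 95% interval from -0.58 to 0.19) did not pass (edgeR adjusted p = 0.678), and was 0.02 without GFP replicate 3.

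Igsf11, an adhesion protein of brain and testis that in mouse neurons binds the postsynaptic scaffold PSD-95 and AMPA receptors, lies on chromosome 16 from 38892671 to 39027159. It was at 31.5, 27.9 and 28.8 CPM in the Kmt5b shRNA libraries and at 31.6, 29.4 and 35.2 CPM in the GFP libraries. The ranges overlapped, with the highest value in GFP replicate 3. Igsf11 did not pass, with a log2 fold change of -0.13 ± 0.10 (SE, 95% interval from -0.35 to 0.10; edgeR adjusted p = 0.637).

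Clmp, a close relative of Cxadr that human gene studies tie to growth of the intestine, lies on chromosome 9 from 40685962 to 40785319. It was at 25.6, 22.0 and 20.6 CPM in the Kmt5b shRNA libraries and at 23.8, 21.3 and 20.3 CPM in the GFP libraries. These ranges nearly coincided, and the log2 fold change was 0.06 ± 0.11 (SE, 95% interval from -0.18 to 0.30; edgeR adjusted p = 0.874). Esam, an adhesion protein of endothelial tight junctions and platelets, lies on chromosome 9 from 37528078 to 37538319. It was at 16.6, 13.1 and 16.7 CPM in the Kmt5b shRNA libraries and at 14.0, 16.2 and 15.1 CPM in the GFP libraries. Here too the groups overlapped, with a log2 fold change of 0.04 ± 0.13 (SE, 95% interval from -0.23 to 0.31; edgeR adjusted p = 0.936).

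Of the 6 relatives, 1 passed the edgeR test and it was higher, against 8.46% of all genes tested called in either direction, 2.77% higher and 5.69% lower. A count of this size among 6 genes is given as a description only. Each of the 5 relatives that did not pass has an interval that holds 0 and, within its own bounds given above, other values that these libraries do not tell from 0. The median log2 fold change of all genes tested was -0.02.

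**Figure D2:**
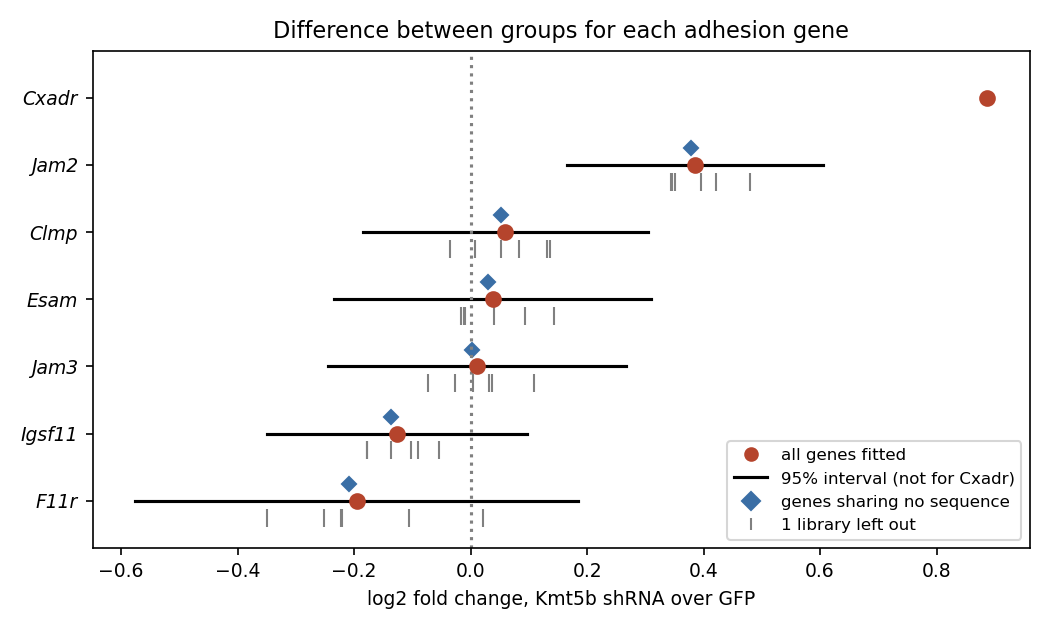
Log2 fold change of each adhesion gene, Kmt5b shRNA over GFP, from the fit over all genes (red points), and for the 6 relatives also its 95% interval (black lines), the value among genes without shared sequence (blue diamonds) and the values with 1 library left out (grey ticks). Cxadr, at 0.89, is drawn as a point alone because it was chosen by this difference, and among the relatives the interval of Jam2 lies above 0 while those of the other 5 cross 0.

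Levels between genes were compared per kilobase of merged exons and scaled as CPM. In the Kmt5b shRNA libraries Cxadr was the highest of the 7 at 10.9 ± 0.738, followed by Jam2 at 8.92 ± 0.505 and Igsf11 at 6.55 ± 0.419 CPM per kilobase (SD, n = 3), and these 3 did not overlap. Jam3, which overlapped Igsf11, Esam and Clmp followed at 5.84, 5.40 and 4.95, each overlapping the next, and F11r was lowest at 3.22 ± 0.366 with no overlap. In the GFP libraries the order of levels per kilobase began with Igsf11 at 7.14 ± 0.650 and Jam2 at 6.83 ± 0.719, which overlapped each other. Cxadr came next at 5.89 ± 0.392 and overlapped Jam3 at 5.79 ± 0.275 (SD, n = 3), while Esam, Clmp and F11r closed the order at 5.27, 4.75 and 3.68, each overlapping the one before it. The order in the GFP libraries depended on the gene length used: Cxadr ranked 1 by coding length and 5 by the longest transcript. In the Kmt5b shRNA libraries it ranked 1 with each of these lengths.

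**Figure D3:**
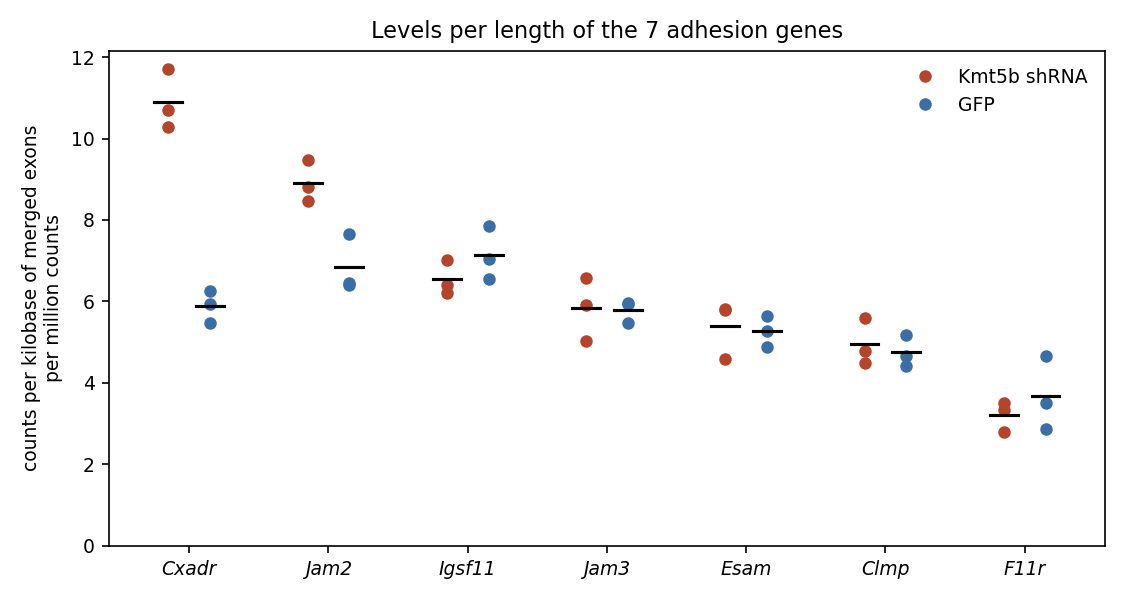
Level of each adhesion gene in CPM per kilobase of merged exons, 1 point per library with Kmt5b shRNA left of GFP and black bars for the mean of 3. Cxadr lies at 10.3 to 11.7 in the Kmt5b shRNA libraries, above each other gene, and at 5.47 to 6.25 in the GFP libraries, level with Jam3.

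The make-up of the family within a library shows the same values another way. Cxadr took 22.4%, 24.6% and 24.4% of the summed level of the 7 genes in the Kmt5b shRNA libraries and 15.7%, 13.9% and 15.3% in the GFP libraries. Jam2 took 19.5% ± 0.26 in the Kmt5b shRNA and 17.4% ± 1.87 in the GFP libraries (SD, n = 3 each). Without Cxadr, the summed level of the other 6 was 34.9 ± 1.85 CPM per kilobase in the Kmt5b shRNA libraries and 33.5 ± 1.44 in the GFP libraries (SD, n = 3 each), with overlapping ranges. Per kilobase of merged exons, Cxadr was above Jam2 in every Kmt5b shRNA library, at ratios of 1.17, 1.26 and 1.24. By the same length, Cxadr was below Jam2 in every GFP library, at ratios of 0.927, 0.714 and 0.971. The order of Cxadr and Jam2 in the GFP libraries depended on the gene length used. By coding length the GFP mean of Cxadr ranked 1, above Jam2, and by the longest transcript it ranked 5, below Jam2.

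The exons of Cxadr lie partly under those of Btg3, an antiproliferative gene of the BTG/TOB family that is read from the opposite strand at chromosome 16 from 78332637 to 78377192. Exons of other genes cover 700 of the 7400 merged exon bases of Cxadr, or 9.46%, and 695 of these are under Btg3. The libraries were stranded, per the labels' protocols, but whether counting used the strand is not given in the sources used here, so reads in the overlap could be lost to both genes or assigned to either. The same limit holds for Jam3, with 36.2% of its merged exon bases under Gm48796, and for Clmp, with 10.1% under Gm16096. Btg3 was at 14.2, 11.1 and 14.0 CPM in the Kmt5b shRNA libraries and at 2.93, 3.55 and 3.90 CPM in the GFP libraries, a log2 fold change of 1.92 ± 0.17 (SE, edgeR adjusted p = 6.65e-07). It was thus higher on the same side as Cxadr, by 9.64 CPM in the mean against 37.1 CPM for Cxadr. Btg3 has a processed pseudogene, Gm7334, that had 2, 9 and 0 counts in the Kmt5b shRNA libraries and 305, 138 and 322 in the GFP libraries. With the counts of Gm7334 added, the Btg3 log2 fold change was 0.75 ± 0.14 (edgeR adjusted p = 0.00154), and with the counts of Btg3 added to Cxadr the Cxadr log2 fold change was 0.99. Across the 1539 protein-coding genes tested with 5 to 15% of their exon bases under genes of the other strand, the median log2 fold change was 0.01, and 3.05% were called higher against 4.03% of the 11091 with no such overlap. These 1539 were not chosen for neighbours that differ between groups as Btg3 does. The part of Btg3 reads in the Cxadr values was not tested.

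Other tested protein-coding genes next to Cxadr did not pass. Upstream, Nrip1 had a log2 fold change of 0.11, Usp25 0.22 and Gm11146 0.39, and beyond Btg3, D16Ertd472e had -0.26 and Chodl 0.12 (edgeR adjusted p from 0.236 to 0.922). Around Jam2, the 3 tested neighbours on each side had edgeR adjusted p from 0.268 to 0.990. Among them the neural adhesion gene Ncam2 had 0.26 ± 0.12 (SE) and the amyloid precursor gene App -0.01 ± 0.10 (SE).

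Outside the 7 members, Vsig2 of the CTX group was at 6.63 ± 1.53 CPM with the hairpin and 7.79 ± 1.57 CPM with GFP (mean ± SD, n = 3 each). The group means of Vsig8, Igsf5 and Jaml were at most 1.25 CPM. Of these 4 tested genes, 0 passed edgeR (0 by DESeq2), against 8.46% of all genes tested. At an unadjusted p under 0.05 there was 1, Jaml, a leukocyte protein that binds Cxadr. The share of all genes at an unadjusted p under 0.05 is not given here, so such list counts have no background. Over all genes, DESeq2 called 846 higher and 1629 lower. Jaml was at 0.569 ± 0.131 CPM with the hairpin and 1.25 ± 0.266 CPM with GFP (mean ± SD, n = 3 each), a log2 difference of -1.13 ± 0.34 (SE) that did not pass (edgeR adjusted p = 0.0503). Tight junction membrane proteins, the claudins, occludin and their kin, had 0 of 11 tested members called by edgeR (0 by DESeq2, 1 at an unadjusted p under 0.05) and a median log2 fold change of 0.07. Cldn5, the main claudin of the blood-brain barrier, was at 42.8 ± 0.783 CPM with the hairpin and 38.9 ± 5.18 CPM with GFP (mean ± SD, n = 3 each; edgeR adjusted p = 0.592). Cldn10 was at 15.8 ± 1.76 CPM with the hairpin and 21.1 ± 2.78 CPM with GFP (mean ± SD, n = 3 each; edgeR adjusted p = 0.0609).

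For the lists that follow, the shares over all genes tested were 2.77% called higher and 5.69% called lower by edgeR. Those genes include noncoding ones. Of the 11091 protein-coding genes with no exon bases under genes of the other strand, 4.03% were called higher and 1.84% lower in the same fit. Junction scaffolds, polarity proteins and the small GTPases listed with them had 2 of 30 tested members called, both higher, with a median log2 fold change of 0.01. They were Rap2c, a small GTPase, with a log2 fold change of 0.61 ± 0.11 (SE, edgeR adjusted p = 0.00178), and Rap1a, a small GTPase that JAM-A signals to, with 0.36 ± 0.10 (SE, edgeR adjusted p = 0.0429). With 5 libraries Rap1a passed in 2 of 6 fits, those that left out GFP replicate 1 or Kmt5b shRNA replicate 1, and Rap2c in 6 of 6. Leaving out GFP replicate 1 gave 3 called genes of this list, and leaving out GFP replicate 2, GFP replicate 3 or Kmt5b shRNA replicate 3 gave 1. Nectins and Cadm proteins, which are junction proteins of the same superfamily, had 1 of 9 called and a median of 0.13. The called gene was Nectin1, at 37.9 ± 5.91 CPM with the hairpin and 24.6 ± 3.18 CPM with GFP (mean ± SD, n = 3 each), with a log2 fold change of 0.62 ± 0.13 (SE, edgeR adjusted p = 0.00452), and in genes without shared sequence its adjusted p was 0.0545. Cadm1, a synaptic adhesion protein, was at 343.3 ± 10.9 CPM with the hairpin and 275.5 ± 30.4 CPM with GFP (mean ± SD, n = 3 each; edgeR adjusted p = 0.0879). Integrins known to bind JAM proteins or to act with them had 1 of 10 called and a median of -0.10. Itgb1, the integrin beta 1 subunit, was higher by 0.53 ± 0.10 on the log2 scale (SE, edgeR adjusted p = 0.00178), also in 6 of 6 fits with 5 libraries. Itgal, the leukocyte integrin subunit that pairs to bind JAM-A, had -1.57 ± 0.44 (SE, edgeR adjusted p = 0.0781). Without GFP replicate 1, 3 integrins were called, in a fit that called 822 genes higher and 1510 lower, against 676 and 1390 with all libraries.

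Marker lists of cell types in cortex were set beside the members. Over all genes tested, noncoding ones included, 8.46% were called by edgeR, 2.77% higher and 5.69% lower. Of the 11091 protein-coding genes with no exon bases under genes of the other strand, 4.03% were called higher and 1.84% lower. Endothelial markers had 0 of 16 called by edgeR (0 by DESeq2, 1 at an unadjusted p under 0.05) and a median log2 fold change of -0.0015. They summed to between 474.1 and 534.9 CPM in the Kmt5b shRNA libraries and between 508.3 and 523.6 CPM in the GFP libraries. Kmt5b shRNA replicate 2 was lowest for this sum and lowest for Esam. The part of endothelial cells in the Esam values was not tested. Mural cell markers had 0 of 10 called by edgeR and microglia markers 0 of 10, with medians of 0.01 and -0.02, and both lists had 0 by DESeq2 and 0 at an unadjusted p under 0.05. Choroid plexus and ependyma markers had 0 of 6 and meningeal fibroblast markers 0 of 8 called by edgeR, with medians of -0.08 and -0.15, and each had 1 by DESeq2 and 1 at an unadjusted p under 0.05. Neuron markers had 1 of 12 called, the neurofilament gene Nefm, which was lower by edgeR at a log2 fold change of -0.59 (adjusted p = 0.00329), and a median of -0.08. Astrocyte markers had 4 of 12 called, all lower, with a median of -0.17 and sums of 4453 to 5057 CPM in the Kmt5b shRNA libraries and 5208 to 5353 CPM in the GFP libraries. They were Aqp4, the water channel of astrocyte endfeet, at -0.64 ± 0.12 (SE, edgeR adjusted p = 0.00178), the gap junction genes Gja1 and Gjb6, and the bicarbonate transporter Slc4a4, at -0.51, -0.63 and -0.39. Gjb6 and Slc4a4 are named after their values were seen, as called genes. Of the 12 astrocyte markers 9 were below 0 and 3 above. Among the latter were Gfap at 0.39 ± 0.25 and Sox9 at 0.26 ± 0.15 (SE), which did not pass. Leaving out 1 library gave 1 to 3 called astrocyte markers, the fewest without Kmt5b shRNA replicate 3, where the median was -0.094. Among genes without shared sequence 1 of 11 was called, Aqp4, against 1.3% of all genes in that fit. The edgeR adjusted p there was 0.0955 for Gjb6 and 0.0615 for Slc4a4, and Gja1 is not in that fit. Oligodendrocyte markers had 0 of 12 called by edgeR (1 by DESeq2, 2 at an unadjusted p under 0.05) and 12 of 12 below 0, with a median of -0.41. That median was -0.16 with Kmt5b shRNA replicate 1 left out, -0.27 with GFP replicate 1 left out and -0.62 with Kmt5b shRNA replicate 3 left out. The oligodendrocyte precursor markers had 1 of 10 called and a median of 0.10, with 6 above 0 and 4 below. The called gene was Olig2, a transcription factor of that lineage, with a log2 fold change of 0.54 ± 0.14 (SE, edgeR adjusted p = 0.0211). Olig2 did not pass without GFP replicate 2, GFP replicate 3 or Kmt5b shRNA replicate 3 (edgeR adjusted p from 0.0514 to 0.118), nor among genes without shared sequence (adjusted p = 0.0836).

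Immature neuron and progenitor markers, set beside Cxadr because of its developmental expression, had 5 of 15 called, all higher, against 2.77% of all genes tested. The share called higher was 4.03% of the 11091 protein-coding genes with no exon bases under genes of the other strand. Their median log2 fold change was 0.37. Their sum was 799.4 to 869.7 CPM in the Kmt5b shRNA libraries and 398.8 to 458.3 CPM in the GFP libraries. Most of that difference was Stmn1, a microtubule regulator that shares sequence with copies, at 522.5 ± 45.0 CPM with the hairpin and 183.4 ± 21.4 CPM with GFP (mean ± SD, n = 3 each; edgeR adjusted p = 1.06e-07). The other called markers were the surface protein Cd24a, the transcription factor Sox4, the tubulin Tubb2b and the intermediate filament Nes, with log2 fold changes of 0.97, 0.65, 0.44 and 0.44. Sox4, Tubb2b and Nes are named after their values were seen, as called genes. The fit of genes without shared sequence, which called 1.3% of its genes, holds 12 of these markers and neither Stmn1, Cd24a nor Tubb2b. Of these 12, 5 had an unadjusted p under 0.05 by edgeR, with no share of all genes given to set beside that count. Of the 12 markers, 0 were called by edgeR, the median was 0.20 and 10 were above 0. Their sum there was 171.0 to 182.3 CPM in the Kmt5b shRNA libraries and 136.7 to 152.3 CPM in the GFP libraries. Leaving out Kmt5b shRNA replicate 1 or replicate 3 from the fit of all genes left 2 of the 15 called, and leaving out any other library left 4 to 6. The part of these cells in the Cxadr values was not tested.

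**Figure D4:**
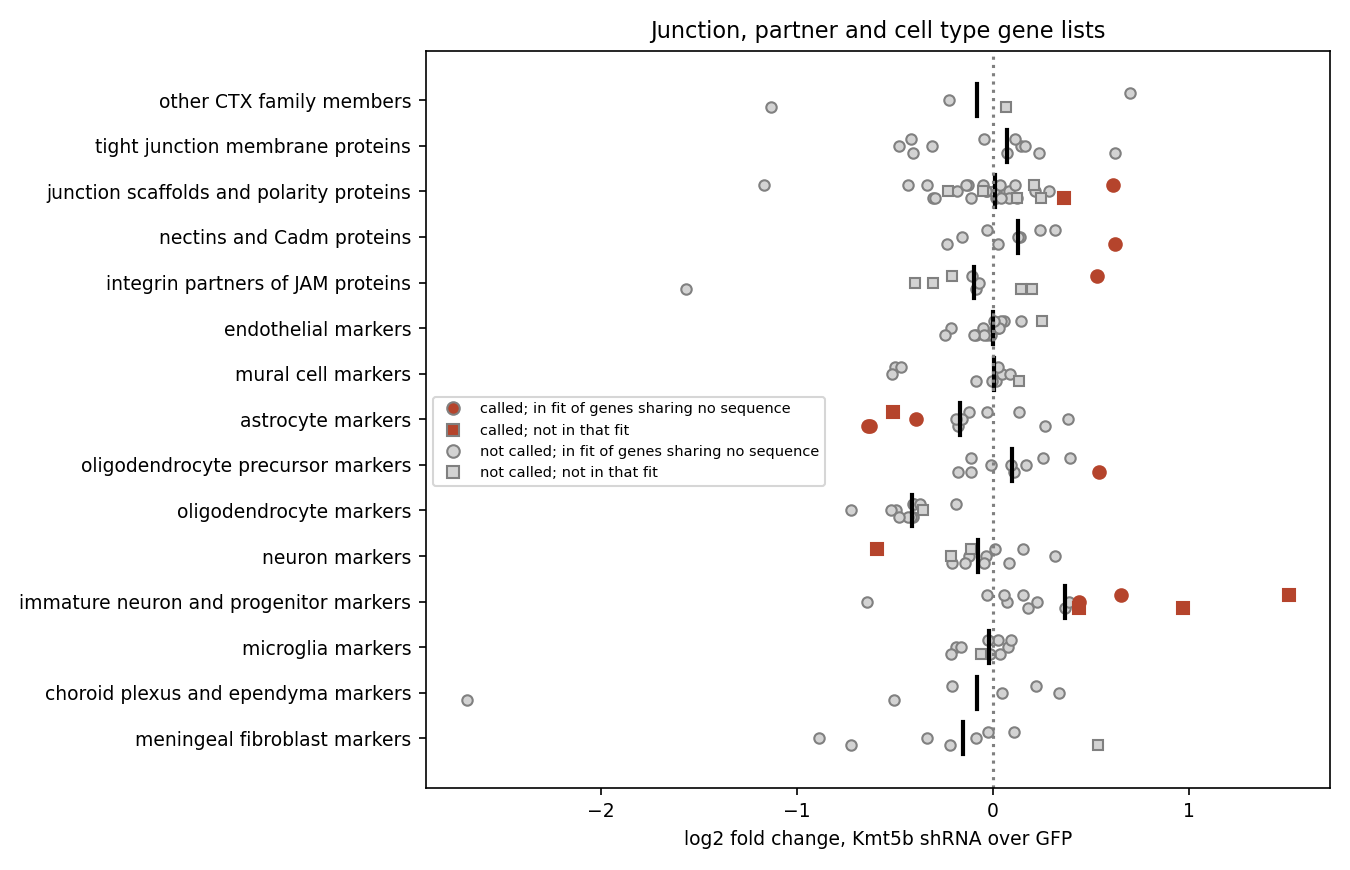
Log2 fold change, Kmt5b shRNA over GFP, of each tested gene of the junction, partner and cell type lists, with 1 symbol per gene. Red marks an edgeR adjusted p over all genes under 0.05. Circles mark genes kept in the fit of genes without shared sequence, squares the others, and black bars the list medians. The immature neuron and progenitor list has a median of 0.37 with its 2 largest values in genes drawn as squares, and the oligodendrocyte list has all 12 genes below 0.

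Genes with a profile most like that of Cxadr were sought among 12670 protein-coding genes by the root mean square difference of mean-centred log2 CPM over the 6 libraries, which is a description of shape and holds the difference between groups. The closest was St8sia2, an enzyme that builds polysialic acid on the neural adhesion molecule NCAM in developing brain, with a root mean square difference of 0.06 on the log2 scale. St8sia2 was at 2.85, 3.06 and 3.57 CPM in the Kmt5b shRNA libraries and at 1.81, 1.69 and 1.87 CPM in the GFP libraries. The next were the cold-inducible RNA-binding protein gene Rbm3 (0.08), the chromatin protein gene Hmgn2 (0.09), the proteasome activator gene Psme2 (0.09) and the histone deacetylase gene Hdac1 (0.10), all of which share sequence with other genes or copies, so that their counts are uncertain. Of the relatives, Jam2 ranked 499 in this order with a root mean square difference of 0.29, and the other 5 ranked from 5579 to 10712.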

How the data were processed

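Counts per gene were deposited for 6 libraries of mouse prefrontal cortex. The authors made these counts from stranded, ribosomal RNA-depleted total RNA libraries, per the labels' protocols. The submitters' processing notes name STAR, featureCounts, DESeq2 and mm10, while the labels' protocols name Cutadapt and TopHat2. The setting for strand is not given in the sources used here.

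The deposited counts were fitted with edgeR 4.0.16 in R 4.3.3 (filterByExpr, TMM scaling, quasi-likelihood test, Benjamini-Hochberg adjustment over all 24419 genes tested, adjusted p under 0.05), using all 6 libraries with group as the only term. Standard errors and 95% intervals are from that fit and are not given for Cxadr. CPM used TMM library sizes. The script was tested on simulated data. With 3 libraries against 3, a two-sided exact permutation test cannot go below p = 0.1, so none is given. Shared sequence was searched with BLAST+ 2.17.0 among GENCODE M21 transcripts (at least 90% identity). For the fit called genes without shared sequence, the longest transcript of each protein-coding gene was compared with those of protein-coding genes and pseudogenes. Genes sharing at least 200 nucleotides or 50% of that length were left out. Cxadr, Clmp and Jam3 stayed in, although across all their transcripts they match opposite-strand genes over up to 357, 213 and 775 nucleotides.

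The members and gene lists were chosen with earlier results of these data known. Named genes are the 7 members, up to 2 tested genes of smallest p per list and direction, and the 5 genes most like Cxadr. Alternatives were DESeq2 1.42.0, other scalings, filters, gene sets and gene lengths, a replicate block, and each library left out.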

Additional observations from a re-analysis of the deposited data

How the results depend on the processing

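Cxadr was chosen by its difference and its ranges do not overlap, so its direction under these alternatives says nothing of stability. Its log2 fold change was 0.99 with the counts of opposite-strand neighbours added, an alternative chosen after seeing the data, against 0.89. Jam2 was 0.37 where protein-coding genes alone were fitted and 0.38 in genes without shared sequence, and passed in neither, so 0 relatives were called in both by edgeR, against 1. With 1 library left out, 0 to 1 relatives were called and Jam2 ranged from 0.34 to 0.48. Jam3 turned to -0.0073 with upper quartile scaling, -0.0039 with protein-coding genes and -0.016 with neighbours added. With a library left out, Jam3 ranged from -0.073 to 0.11, Clmp from -0.03 to 0.14, Esam from -0.02 to 0.14 and F11r from -0.35 to 0.022. The cause was not tested.

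Over all genes, 676 were called higher and 1390 lower, and with a library left out 467 to 822 higher and 1229 to 1510 lower. Protein-coding genes alone gave 471 higher and 184 lower, and genes without shared sequence 108 and 53, in fits with fewer genes tested. List genes called numbered 15, against 29 with any count allowed, 3 in genes without shared sequence and 8 to 21 with a library left out (8 without Kmt5b shRNA replicate 3). Without that library the median was -0.27 for integrins, against -0.10, and -0.17 for microglia markers, against -0.02. In the GFP libraries Cxadr ranked 1 by coding length and 5 by longest transcript, against 3.

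Deviations of same-numbered libraries correlated at -0.034, -0.01 and 0.218, against -0.203 to 0.21 for the other pairs. With 3 libraries per group, these values cannot show whether replicate numbers pair the libraries. A replicate block gave 704 genes higher and 1507 lower, with adjusted p of 0.0403 for Jam2, 0.0686 for Rap1a and 0.0422 for Jaml. No annotated copies of the members were found, so adding the counts of copies was not run.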
